A study of Homo sapiens with 6 samples.

Results

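The genes described here are 10 regulators of apoptosis: BCL2L1, MCL1, BCL2, BAK1, BID, BCL2L11, BIRC2, BIRC3, XIAP and CFLAR. They were taken by gene symbol from a table of 58735 genes with depth- and length-scaled fragment values (FPKM) in 6 RNA-seq libraries, and all 10 were found. The libraries were made from KYSE30, an established human line of oesophageal squamous cell carcinoma. Cells had received si-RAB23-1 or si-RAB23-9, siRNAs against the small GTPase gene RAB23, or the control siRNA si-NC, each at 100 nM with a lipid reagent. Each group has 2 libraries, and each RAB23 siRNA is set against si-NC. Libraries of 1 group are labelled as biological replicates with no mention of separate cultures, so the p-values below reflect spread that could be technical. Neither the siRNA sequences nor the time to harvest is stated in the labels. In bulk RNA a change in the share of some cells and a change in RNA per cell cannot be told apart.

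Apoptosis of epithelial cells runs through mitochondria or through death receptors. In the mitochondrial route BH3-only proteins such as BID and BIM (gene BCL2L11) engage the BCL2 family, and the effectors BAK (BAK1) and BAX then open pores in the outer membrane unless BCL-xL (BCL2L1), MCL1 or BCL2 hold them back. Caspases carry out the death programme. XIAP inhibits caspases directly, and the related ubiquitin ligases cIAP1 (BIRC2) and cIAP2 (BIRC3) act mainly on signalling complexes below TNF receptors. FLIP (CFLAR) restrains caspase-8 at death receptors.

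Against si-NC, 1 member changed with each RAB23 siRNA, and 4 differed between the siRNAs. BIRC3 fell with si-RAB23-1 to 0.567 times its si-NC level. XIAP fell with si-RAB23-9 to 0.822 times its si-NC level. Between the RAB23 siRNAs, BIRC3 and BCL2L11 were higher, and MCL1 and XIAP lower, with si-RAB23-9 than with si-RAB23-1. Calls here rest on limma fitted to log2(FPKM + 1), with an adjusted p (Benjamini-Hochberg) under 0.05 over the 14352 genes tested, of which 9 are members. BCL2 was too low to be tested. The sizes of changes, rises, falls and differences below are log2 fold changes on this scale, unless FPKM, a ratio or voom is named.

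Of the 9 members tested, 1 was called with si-RAB23-1 against si-NC, where 15.4% of all genes tested were called. With si-RAB23-9 against si-NC 1 of 9 was called, beside 13.3% of all genes. In the direct comparison of si-RAB23-9 with si-RAB23-1, 4 of 9 were called, beside 21.0% of all genes. The first 2 shares are near the background. The median log2 fold change of the 9 members was -0.010, -0.042 and 0.00028 in these comparisons, beside 0.0083, 0.0060 and 0.00023 over all genes tested, but members that move in opposite directions cancel in it. Their median absolute log2 fold change was 0.062 with si-RAB23-1 and 0.065 with si-RAB23-9, beside 0.13 and 0.12 over all genes tested. Between the siRNAs it was 0.20, beside 0.14 over all genes tested. The comparisons share libraries and are not independent of each other. Below it is also said whether the libraries of the groups overlapped. How often groups failed to overlap over all genes tested was not counted. With so few libraries a lack of overlap is a description of the values and no result by itself.

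**Figure D1:**
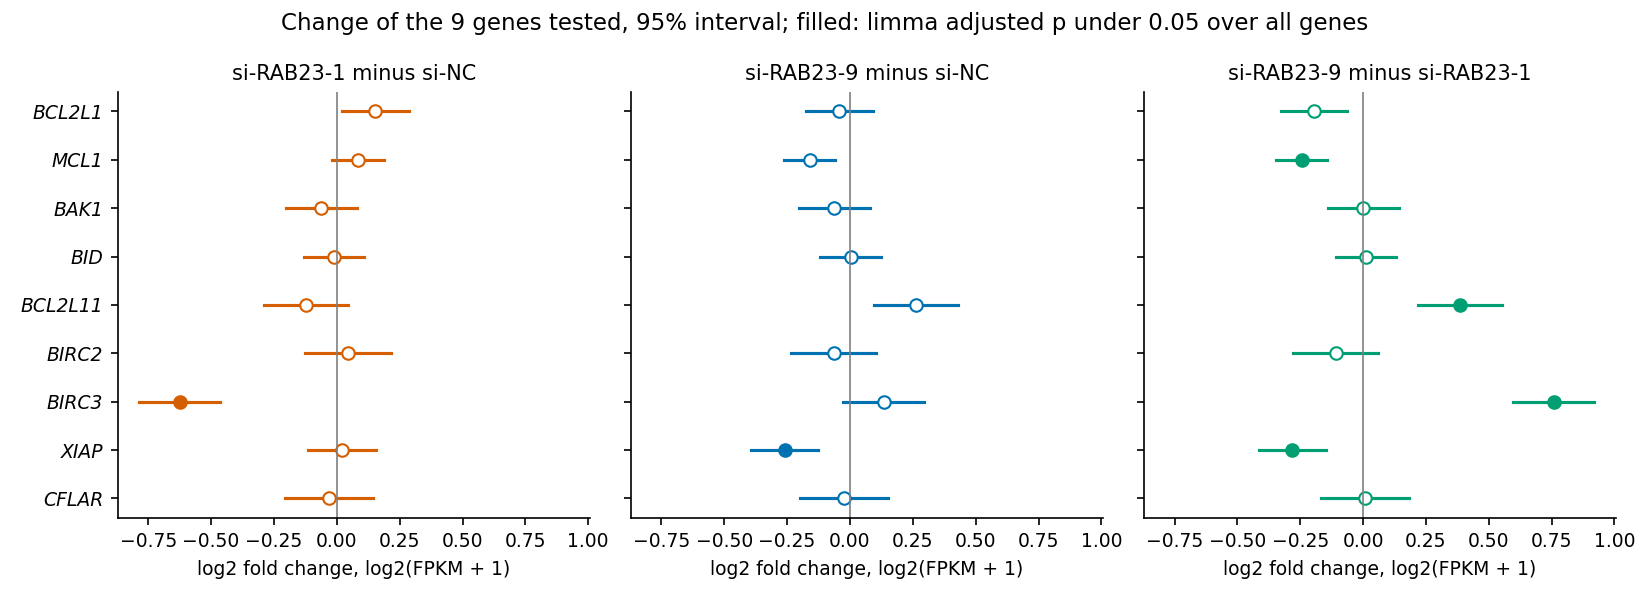
Log2 fold change on the log2(FPKM + 1) scale (x axis) of the 9 genes tested (rows) in the 3 comparisons, as points with 95% intervals from the limma fit; filled points have an adjusted p under 0.05 over all genes. BIRC3 is the only filled point with si-RAB23-1 (-0.62), XIAP the only one with si-RAB23-9 (-0.26), and 4 genes are filled between the siRNAs.

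The libraries held between 17211025 and 24178125 reads assigned to genes, and Spearman correlations were 0.983 to 0.985 within groups and 0.969 to 0.979 between groups. The targeted RAB23 had 1.03 and 1.10 FPKM in the si-RAB23-1 libraries, 1.18 and 1.27 in those of si-RAB23-9, and 3.27 and 3.33 in those of si-NC. Of 8 squamous markers 7 reached 1 FPKM in at least 1 library, while KRT5, a basal keratin that usually defines this epithelium, did not. Their summed level was 118 to 123 FPKM with si-RAB23-1 and 97.0 to 99.9 with si-RAB23-9, against 70.2 to 76.9 with si-NC. Of the 7 tested, 5 were called with si-RAB23-1, 3 with si-RAB23-9 and 5 between the siRNAs, in either direction. Over all genes tested 15.4%, 13.3% and 21.0% were called. The median log2 fold changes of these 7 markers were 0.44, 0.023 and -0.50, so the median marker hardly moved with si-RAB23-9. Of 7 fibroblast markers 4 were at 0 in all libraries (DCN, PDGFRA, COL1A2 and LUM), and only COL1A1 reached 1 FPKM. COL1A1 was not called in any comparison. The list summed to 3.44 to 3.53 FPKM with si-RAB23-1, 3.69 to 3.92 with si-RAB23-9 and 3.45 to 3.47 with si-NC. All 8 leukocyte markers stayed under 1 FPKM with CD3D and MS4A1 at 0, and summed to 0.826 to 0.866 with si-RAB23-1, 0.530 to 0.704 with si-RAB23-9 and 0.782 to 0.826 with si-NC. The 5 markers of simple columnar epithelium, all under 1 FPKM, summed to 0.270 to 0.473 with si-RAB23-1, 0.396 to 0.667 with si-RAB23-9 and 0.343 to 0.356 with si-NC. The 5 endothelial markers summed to 1.62 to 2.12 FPKM with si-RAB23-1, 2.75 to 3.18 with si-RAB23-9 and 3.77 to 3.803 with si-NC, with KDR at 0. Only CDH5 reached 1 FPKM. It was called lower with si-RAB23-1 against si-NC (log2 fold change -0.77). It was also called higher with si-RAB23-9 than with si-RAB23-1 (0.50). The mitochondrially encoded mRNAs summed to 50171 to 52346 FPKM with si-RAB23-1, 50227 to 50802 with si-RAB23-9 and 52413 to 52864 with si-NC. Of these 13 mRNAs, 2 were called with si-RAB23-1, 0 with si-RAB23-9 and 2 between the siRNAs. The part of these lists in the results below was not tested.

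FPKM is per length, with the length the table gives for each gene, so the order of the genes depends on these lengths. MCL1 ranked highest of the 10 in every library and made up 56.3% to 61.0% of their summed FPKM. It stood at the 98.5th percentile of the genes tested by its mean with si-NC. BCL2L1 and BAK1 came next, at 20.4 to 24.95 and 20.4 to 23.05 FPKM, and exchanged places between libraries. BID followed at 14.6 to 15.7 FPKM in all 6 libraries. XIAP lay above BIRC2 in all si-RAB23-1 and si-NC libraries and below it in both si-RAB23-9 libraries. BCL2L11, BIRC3 and CFLAR were low, between 2.03 and 5.48 FPKM, and BCL2L11 and BIRC3 exchanged places in 1 si-NC library. CFLAR ranked below BCL2L11 and BIRC3 with a listed length of 22529 bases, against 6658 for BCL2L11, although it had 788 to 1174 reads and BCL2L11 398 to 695. BCL2 was last throughout, at 0.299 to 0.445 FPKM, so that BCL2L1 exceeded it by 50.4 to 75.2 times. Values are per gene, so long and short forms of BCL2L1, MCL1, BCL2L11 and CFLAR, which differ in function, cannot be told apart.

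**Figure D2:**
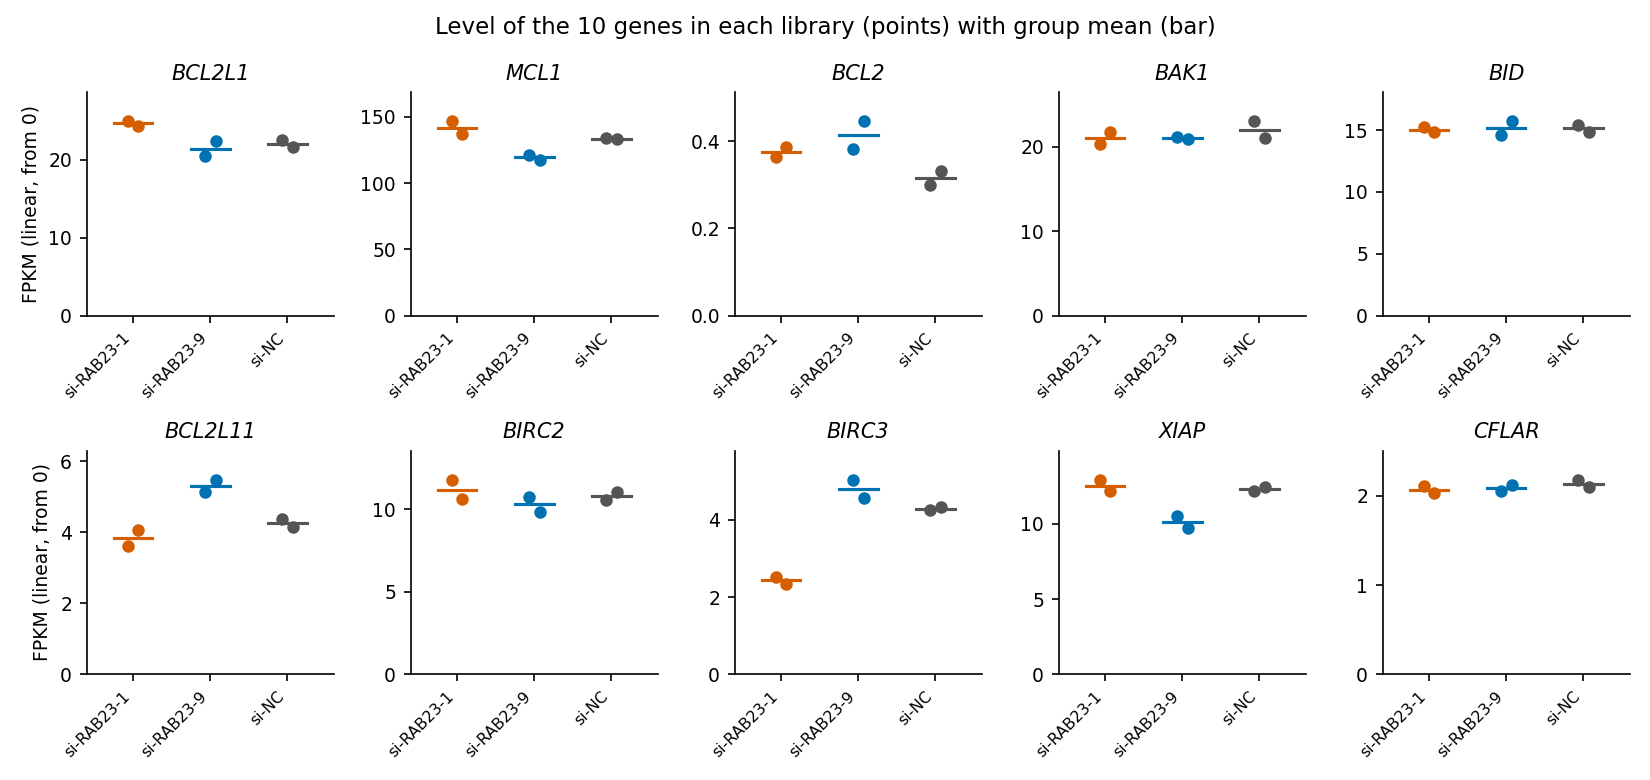
FPKM on a linear axis from 0 (y axis, own scale per gene) of each of the 10 genes in the 6 libraries, as points by group, with the group mean as a bar. The si-RAB23-1 points of BIRC3 (2.53 and 2.33) and the si-RAB23-9 points of XIAP (10.6 and 9.75) lie below all other points of those genes.

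BIRC3 (ENSG00000023445, chromosome 11, 102317450 to 102339403, plus strand, GRCh38 here and below) encodes cIAP2, a ubiquitin ligase whose gene is a known target of NF-kappaB. It had 2.53 and 2.33 FPKM with si-RAB23-1 and 5.04 and 4.57 FPKM with si-RAB23-9, against 4.25 and 4.33 FPKM with si-NC. These rest on 315 and 390 reads with si-RAB23-1, 716 and 610 with si-RAB23-9, and 762 and 636 reads with si-NC. Both si-RAB23-1 libraries were low, both si-RAB23-9 libraries were above si-NC, and no groups overlapped. With si-RAB23-1 against si-NC the log2 fold change was -0.62 (SE 0.0652, limma adjusted p = 0.00547). The log2(FPKM + 1) scale understates this: voom on the recovered reads gave -0.85. With si-RAB23-9 against si-NC the change was 0.13, with a 95% interval of -0.027 to 0.30 (limma adjusted p = 0.238), which did not pass the test. Between si-RAB23-9 and si-RAB23-1 the difference was 0.76 (SE 0.0652, limma adjusted p = 0.00254).

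The 250 bases before the RefSeq start of BIRC3 are shown because BIRC3 had the largest change of the 9 tested members with si-RAB23-1 and between the siRNAs (not with si-RAB23-9 against si-NC), and the stretch carries matches to the NF-kappaB consensus there. They come from RefSeq (GRCh38.p14, chr11:102317234-102317483, plus strand), and the capitals mark both matches, which begin 199 and 135 bases before that start and lie on the opposite strand. The RefSeq start lies downstream of the gene start in the table, so the last bases shown are inside the gene as the table has it.
BIRC3 promoter: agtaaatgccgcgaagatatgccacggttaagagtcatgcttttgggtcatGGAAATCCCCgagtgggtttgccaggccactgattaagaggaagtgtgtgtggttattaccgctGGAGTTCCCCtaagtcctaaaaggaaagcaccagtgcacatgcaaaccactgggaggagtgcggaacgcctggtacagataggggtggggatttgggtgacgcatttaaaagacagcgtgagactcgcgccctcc
The search used the NF-kappaB consensus of 10 letters on both strands, in windows of 250 bases before to 50 after each start, without other motifs. Of 35116 such windows 11.3% held at least 1 match and 2.04% at least 2. Of the members, 9 had 20 windows in all. Besides BIRC3, a window of CFLAR held a match. A match is a description of the letters and not a measured binding site.

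XIAP (ENSG00000101966, chromosome X, 123859724 to 123913979), the direct caspase inhibitor, had 12.9 and 12.2 FPKM with si-RAB23-1 and 10.6 and 9.75 FPKM with si-RAB23-9, against 12.2 and 12.5 with si-NC. Both si-RAB23-9 libraries were below the other 4, whereas si-RAB23-1 and si-NC overlapped. With si-RAB23-9 against si-NC it fell by 0.26 (SE 0.0542, limma adjusted p = 0.0342), on 1562 to 2632 reads per library. The difference between si-RAB23-9 and si-RAB23-1 was -0.28 (limma adjusted p = 0.0209). With si-RAB23-1 against si-NC the change was 0.02, with a 95% interval of -0.11 to 0.16 (limma adjusted p = 0.827). Processed pseudogenes XIAPP1, XIAPP2 and XIAPP3 had at most 9 reads in a library. How reads shared with them were assigned is not stated.

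BIRC2 (ENSG00000110330, chromosome 11, 102347211 to 102378670), which encodes cIAP1 and lies next to BIRC3, had 11.8 and 10.6 FPKM with si-RAB23-1 and 10.8 and 9.84 FPKM with si-RAB23-9, against 10.6 and 11.1 with si-NC. The groups overlapped in all 3 comparisons. Its changes of 0.04 and -0.06 against si-NC missed the threshold (limma adjusted p = 0.703 and 0.593), with 95% intervals of -0.13 to 0.21 and -0.23 to 0.11. The ratio of BIRC3 to BIRC2 FPKM was 0.214 and 0.220 with si-RAB23-1. It was 0.468 and 0.465 with si-RAB23-9, against 0.402 and 0.391 with si-NC. The libraries of a group lay close together in this ratio, and the 3 groups did not overlap. BIRC3 alone already separated the groups, so this is not a further result. The summed FPKM of BIRC2, BIRC3 and XIAP ranged from 24.2 to 27.9 over the 6 libraries.

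MCL1 (ENSG00000143384, chromosome 1, 150574551 to 150579738) encodes a short-lived guardian protein that binds BIM and BAK. Its level was 147 and 137 FPKM with si-RAB23-1 and 121 and 118 FPKM with si-RAB23-9, against 134 and 133 with si-NC. No groups overlapped: si-RAB23-1 was highest and si-RAB23-9 lowest. The direct difference of si-RAB23-9 minus si-RAB23-1 was -0.24 (SE 0.0415, limma adjusted p = 0.0151). Against si-NC neither siRNA passed the test, with changes of 0.08 for si-RAB23-1 (95% interval -0.019 to 0.19, limma adjusted p = 0.229) and -0.16 for si-RAB23-9 (95% interval -0.26 to -0.058, limma adjusted p = 0.0595). MCL1 had 9116 to 13987 reads per library, the most of the 10.

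BCL2L1 (ENSG00000171552, chromosome 20, 31664452 to 31723989), the BCL-xL gene, had 24.95 and 24.4 FPKM with si-RAB23-1 and 20.4 and 22.4 FPKM with si-RAB23-9, against 22.5 and 21.7 with si-NC. The si-RAB23-1 libraries lay above the other 4. Its direct difference of si-RAB23-9 minus si-RAB23-1 was -0.20 (95% interval -0.33 to -0.064) and missed the threshold (limma adjusted p = 0.0523). This depended on the setting. The difference passed with a mean FPKM of at least 5, median-of-ratios scaling or quantile normalization. It missed with a smaller pseudocount, no filter, only the groups compared or a replicate block. Against si-NC the changes were 0.15 with si-RAB23-1 (limma adjusted p = 0.113) and -0.04 with si-RAB23-9 (limma adjusted p = 0.661). The antisense gene ABALON covers 1424 of the 3314 exon bases of BCL2L1. It was at 0.594 to 0.833 FPKM, and its reads cannot be told from those of BCL2L1 without strand.

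BCL2 (ENSG00000171791, chromosome 18, 63123346 to 63320128), the founding member of the family, had 0.364 and 0.386 FPKM with si-RAB23-1 and 0.382 and 0.445 FPKM with si-RAB23-9, against 0.299 and 0.330 with si-NC. Both RAB23 siRNA groups lay above si-NC and overlapped each other. The values rest on 71 to 101 reads per library. Without the filter on low values its changes were 0.06 and 0.10 (limma adjusted p = 0.741 and 0.609). Voom on the recovered reads without the filter gave 0.24 and 0.39 (adjusted p = 0.633 and 0.317), with 95% intervals of -0.17 to 0.65 and -0.016 to 0.80. Both intervals include 0.

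BAK1 (ENSG00000030110, chromosome 6, 33572547 to 33580293), the pore-forming effector, had 20.4 and 21.8 FPKM with si-RAB23-1 and 21.2 and 20.9 FPKM with si-RAB23-9, against 23.05 and 21.0 with si-NC. Its change was -0.06 with either siRNA (limma adjusted p = 0.507 and 0.535), with 95% intervals of -0.20 to 0.079. BID (ENSG00000015475, chromosome 22, 17734138 to 17774770), whose protein is cut by caspase-8 and links death receptors to mitochondria, had 15.2 and 14.8 FPKM with si-RAB23-1 and 14.6 and 15.7 FPKM with si-RAB23-9, against 15.4 and 14.9 with si-NC. All groups of BID overlapped. Its change against si-NC was -0.010 with si-RAB23-1 (95% interval -0.13 to 0.11) and 0.0024 with si-RAB23-9 (95% interval -0.12 to 0.12), and neither passed (limma adjusted p = 0.910 and 0.981).

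BCL2L11 (ENSG00000153094, chromosome 2, 111119378 to 111168447) encodes BIM, a BH3-only protein that binds all of the guardians and can activate BAK and BAX. It had 3.61 and 4.05 FPKM with si-RAB23-1 and 5.14 and 5.48 FPKM with si-RAB23-9, against 4.37 and 4.14 with si-NC. Both si-RAB23-9 libraries were highest, both si-RAB23-1 libraries lowest, and no groups overlapped. Between si-RAB23-9 and si-RAB23-1 the difference was 0.39 (SE 0.0673, limma adjusted p = 0.0162). Against si-NC the changes were -0.12 with si-RAB23-1 (limma adjusted p = 0.272) and 0.26 with si-RAB23-9 (95% interval 0.096 to 0.43, limma adjusted p = 0.0582). They did not pass the test. The lincRNA gene MIR4435-2HG runs antisense through BCL2L11 and covers 727 of its 6658 exon bases, so without strand some reads could belong to either gene. MIR4435-2HG had 5.26 and 4.63 FPKM with si-RAB23-1 and 2.91 and 2.84 FPKM with si-RAB23-9, against 3.52 and 3.54 with si-NC, the reverse order of groups to that of BCL2L11.

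MCL1 and BCL2L11 thus differed between the siRNAs in opposite directions. The ratio of MCL1 to BCL2L11 FPKM was 40.6 and 33.7 with si-RAB23-1. It was 23.6 and 21.5 with si-RAB23-9, against 30.7 and 32.1 with si-NC. MCL1 transcript exceeded BCL2L11 transcript in every library, by a factor that was lowest in both si-RAB23-9 libraries. Each of these genes alone already separated the groups, so the ratio restates their values and is not a further result. It says nothing of the proteins.

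**Figure D3:**
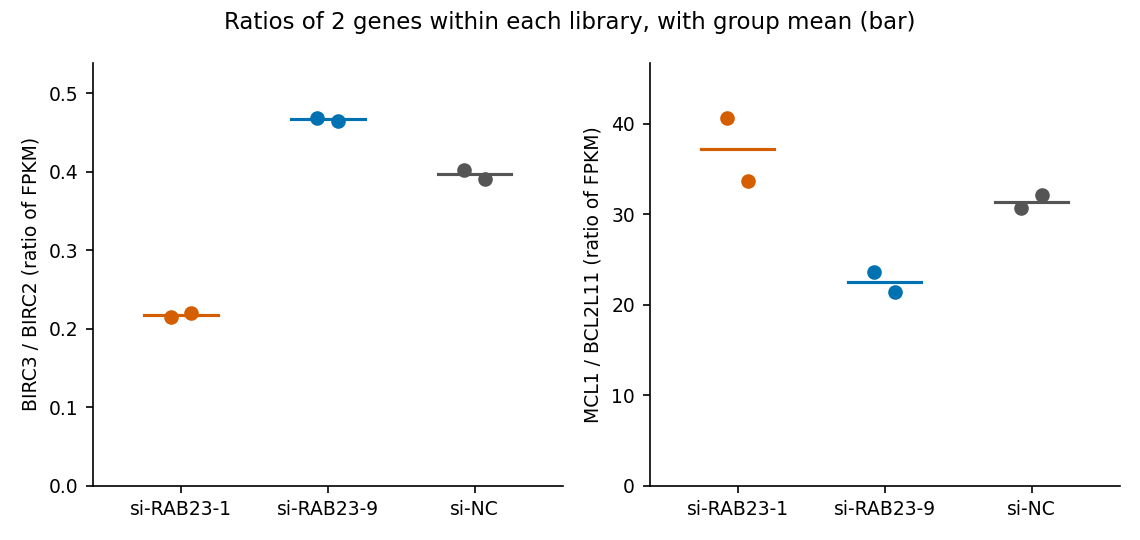
Ratio of BIRC3 to BIRC2 FPKM (left) and of MCL1 to BCL2L11 FPKM (right) within each library, on linear axes from 0, as points by group with the group mean as a bar. In both panels the 3 groups do not overlap: BIRC3 to BIRC2 is lowest with si-RAB23-1 (0.214 and 0.220), and MCL1 to BCL2L11 is lowest with si-RAB23-9 (23.6 and 21.5). BIRC3, MCL1 and BCL2L11 each separate the groups alone, so the ratios restate this.

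CFLAR (ENSG00000003402, chromosome 2, 201116104 to 201176687), which encodes FLIP, had 2.11 and 2.03 FPKM with si-RAB23-1 and 2.06 and 2.12 FPKM with si-RAB23-9, against 2.18 and 2.10 with si-NC. The groups overlapped in all 3 comparisons. The changes of -0.03 and -0.02 against si-NC missed the threshold (limma adjusted p = 0.796 and 0.867), with 95% intervals of -0.21 to 0.14 and -0.20 to 0.15.

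The 6 calls were refitted with each library left out in turn. A fit without 1 library has fewer residual degrees of freedom, so a lost call need not mean that the call rests on that library. The direct difference of BIRC3 between the siRNAs passed the test with any 1 library left out (limma adjusted p = 0.0114 to 0.0254). Its fall with si-RAB23-1 passed in 5 of 6 such fits and had a limma adjusted p = 0.0512 without si-NC replicate 2. The fall of XIAP with si-RAB23-9 was lost without any of the si-RAB23-9 or si-NC libraries (limma adjusted p = 0.0770 to 0.167). Between the siRNAs, XIAP was lost without si-RAB23-1 replicate 1 or either si-RAB23-9 library (limma adjusted p = 0.0803, 0.0541 and 0.109). BCL2L11 was lost without the same 3 libraries (limma adjusted p = 0.0604, 0.0625 and 0.0936), and MCL1 without either si-RAB23-9 library (limma adjusted p = 0.0659 and 0.0946). In all of these fits the direction of the 6 calls stayed. Voom on the recovered reads called 1 of 9 members with si-RAB23-1 (26.5% of all genes called), 3 with si-RAB23-9 (23.7%) and 5 between the siRNAs (31.3%). It added the changes of MCL1 (-0.16, adjusted p = 0.00148) and BCL2L11 (0.31, adjusted p = 0.00411) with si-RAB23-9, and that of BCL2L1 between the siRNAs (-0.18, adjusted p = 0.0198).

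**Figure D4:**
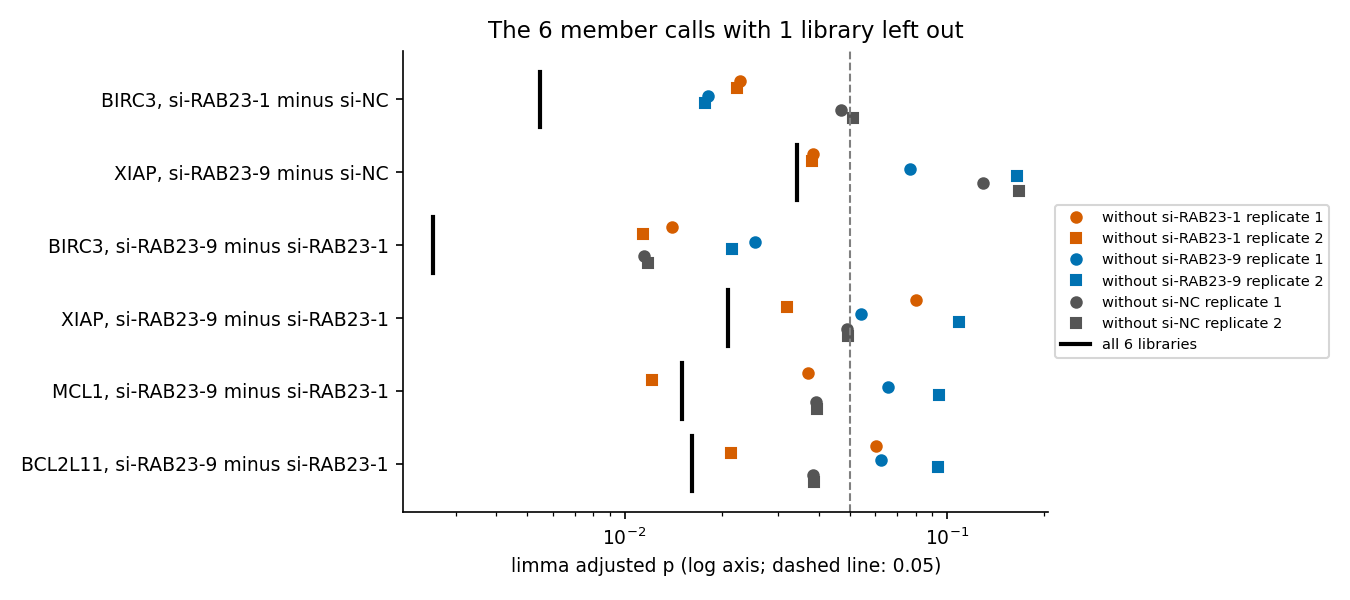
Limma adjusted p (x axis, log scale) of the 6 calls among the members (rows), with all 6 libraries (black bar) and with each library left out (points, coloured by the group of that library). Points right of the dashed line at 0.05 are lost calls: BIRC3 between the siRNAs has none, and XIAP with si-RAB23-9 has 4.

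Genes that act beside the members were described from lists of 41 further genes of the apoptosis pathway, of which 30 were tested. With si-RAB23-1 against si-NC 3 were called, each higher, beside 15.4% of all genes tested, with a median log2 fold change of 0.04. With si-RAB23-9 against si-NC 6 were called higher and 3 lower, beside 13.3% of all genes, with a median of 0.12. Between si-RAB23-9 and si-RAB23-1, 4 were called higher and 4 lower, beside 21.0% of all genes, with a median of 0.07.

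Among the other BCL2 family genes the pro-apoptotic BIK and BOK rose with both siRNAs. BIK, a BH3-only gene, was higher by 0.42 with si-RAB23-1 and 0.29 with si-RAB23-9 (limma adjusted p = 0.0117 and 0.0353). BOK, an effector related to BAK1, was higher by 0.21 and 0.28 (limma adjusted p = 0.0480 and 0.0233). None of these BIK and BOK calls passed in all of the fits that leave out a library in turn. BBC3, the gene of the BH3-only protein PUMA, had 8.24 and 9.37 FPKM with si-RAB23-9, against 5.62 and 7.09 with si-RAB23-1, a log2 fold change of 0.42 (limma adjusted p = 0.0469). Of the 6 further BH3-only genes, the remaining 4 were not called in any of the 3 comparisons, and neither was the effector gene BAX. BCL2L2, the only tested gene of the 3 other guardian genes, had changes of 0.09 and 0.10 against si-NC that did not pass the test.

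Of the 5 other genes of the inhibitor family, 3 were tested. BIRC5, which encodes survivin, a protein of dividing cells, had 47.4 and 46.2 FPKM with si-RAB23-9 and 35.8 and 34.1 FPKM with si-RAB23-1, against 33.3 and 34.5 with si-NC. It rose by 0.45 with si-RAB23-9 against si-NC (SE 0.0406, limma adjusted p = 0.00421) and was higher by 0.41 than with si-RAB23-1 (limma adjusted p = 0.00352). BIRC6, the gene of a very large ubiquitin ligase, fell by 0.24 with si-RAB23-9 (limma adjusted p = 0.0190), the direction of XIAP in the same libraries. XAF1, an interferon-induced gene whose protein antagonizes XIAP, was under the filter and is named here after its values were seen. It had 0.1004 and 0.129 FPKM with si-RAB23-1 and 0.376 and 0.4004 FPKM with si-RAB23-9, against 0.0760 and 0.0928 with si-NC, on 11 to 47 reads. DIABLO, the gene of the mitochondrial antagonist of these inhibitors, is listed under a pair of overlapping gene IDs. Both were low (0.374 to 0.674 FPKM in the higher one), and its level is uncertain because reads could be assigned to either.

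Of 11 genes tested in the list of death receptors, ligands and adaptors, 1 rose with si-RAB23-1, and 3 rose and 2 fell with si-RAB23-9. Against si-NC, 15.4% of all genes tested were called with si-RAB23-1 and 13.3% with si-RAB23-9. TRAF3 and TRAF2, whose proteins form a complex with cIAP1 and cIAP2, rose with si-RAB23-9 by 0.55 and 0.39 (limma adjusted p = 0.00480 and 0.0105). The TRAIL receptor genes TNFRSF10A and TNFRSF10D (a decoy) fell by 0.30 and 0.33 (limma adjusted p = 0.0160 and 0.0104). The TRAIL receptor gene TNFRSF10B, named after its values were seen, had 38.7 and 38.8 FPKM with si-RAB23-9, against 35.2 and 34.0 with si-NC. Its change of 0.16 was in the other direction and missed the threshold (95% interval 0.041 to 0.28, limma adjusted p = 0.0857). TRADD, the adaptor of TNF receptor 1, had 22.2 and 22.5 FPKM with si-RAB23-1 and 17.5 and 16.7 FPKM with si-RAB23-9, against 15.3 and 14.9 with si-NC. It rose by 0.54 with si-RAB23-1 (limma adjusted p = 0.00309) and by 0.17 with si-RAB23-9 (limma adjusted p = 0.0475), and the difference of -0.36 between si-RAB23-9 and si-RAB23-1 also passed (limma adjusted p = 0.00492).

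**Figure D5:**
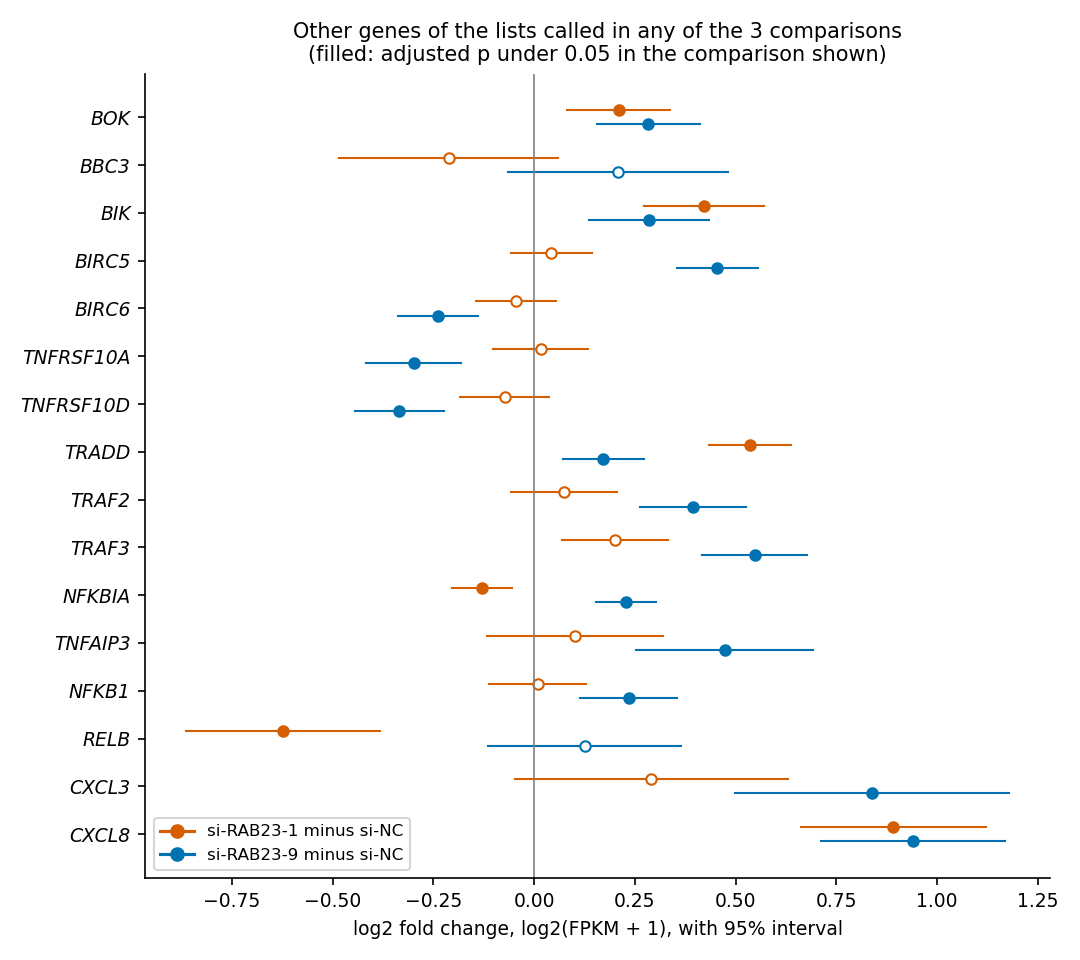
Log2 fold change against si-NC on the log2(FPKM + 1) scale (x axis), with 95% intervals from the limma fit, of the 16 listed genes outside the members that were called in any comparison (rows), for si-RAB23-1 (orange) and si-RAB23-9 (blue). Filled points passed an adjusted p under 0.05 in the comparison shown. BIK (0.42 and 0.29), BOK (0.21 and 0.28), TRADD (0.54 and 0.17) and CXCL8 (0.89 and 0.94) are filled for both. NFKBIA is filled for both in opposite directions (-0.13 and 0.23), and RELB (-0.62) only for si-RAB23-1.

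Since BIRC3 is a known NF-kappaB target, it was set beside a list of 15 NF-kappaB genes and cytokines, of which 8 were tested. With si-RAB23-1 against si-NC 1 rose and 2 fell (median 0.06), beside 15.4% of all genes called. With si-RAB23-9 against si-NC 5 rose (median 0.23), beside 13.3% of all genes called. The gene that rose with si-RAB23-1 was the chemokine gene CXCL8 (0.89, limma adjusted p = 0.00544). RELB, which encodes a subunit of the alternative NF-kappaB pathway, had 5.03 and 5.68 FPKM with si-RAB23-1 and 10.0 and 9.28 FPKM with si-RAB23-9, against 9.62 and 7.99 with si-NC. Its log2 fold change was -0.62 with si-RAB23-1 against si-NC (limma adjusted p = 0.0147), and 0.75 between si-RAB23-9 and si-RAB23-1 (limma adjusted p = 0.00727). As a ratio of mean FPKM to si-NC, RELB was at 0.608 with si-RAB23-1, and BIRC3 at 0.567. NFKBIA, the gene of the inhibitor IkappaB-alpha, fell by 0.13 with si-RAB23-1 (limma adjusted p = 0.0425) and rose by 0.23 with si-RAB23-9 (limma adjusted p = 0.0104). With si-RAB23-9 the chemokine genes CXCL8 and CXCL3 rose by 0.94 and 0.84 (limma adjusted p = 0.00501 and 0.0173). TNFAIP3, the gene of the inhibitor A20, rose by 0.47 and the subunit gene NFKB1 by 0.24 (limma adjusted p = 0.0249 and 0.0333). CXCL3 had 1.79 and 1.80 FPKM with si-RAB23-9, against 0.698 and 0.438 with si-NC, there on 37 and 19 reads. Without its si-RAB23-9 libraries it would not have passed the filter on low values, so its call is no independent result. The log2(FPKM + 1) scale understates its change: its ratio of mean FPKM to si-NC was 3.16, beside 2.14 for CXCL8. Against si-NC, the fall of RELB passed in 4 of the 6 fits that leave out a library (limma adjusted p up to 0.0653), and that of NFKBIA in 0 of 6 (up to 0.191). Of all 33 calls of listed genes outside the members, 9 passed in all 6 fits: CXCL8 with both siRNAs, TRADD with si-RAB23-1, BIRC5 and TRAF3 with si-RAB23-9, and BIRC5, TRADD, NFKBIA and RELB between the siRNAs.

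Over the 6 libraries, the tested genes whose log2(FPKM + 1) followed BIRC3 most closely were PDS5A (Pearson r = 0.999), DCBLD2 (0.997) and PRNP (0.996). DCBLD2, a surface receptor gene, had 13.4 and 13.1 FPKM with si-RAB23-1 and 22.8 and 21.7 FPKM with si-RAB23-9, against 20.8 and 21.2 with si-NC. Those closest to BCL2L11 were EHMT2 (0.997), B3GALT6 (0.996) and ZDHHC8 (0.996). The libraries fall into 3 groups of 2, so such values are a description, picked as the highest of all genes tested.

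The annotated 3′ UTRs of the members were searched for a pair of 7-mers, AAGTTAA and GACATAT, on the transcript strand. These were named earlier, from the same data, for genes lower with si-RAB23-9 (AAGTTAA) and si-RAB23-1 (GACATAT), so they were not chosen independently of these data. In this search BIRC3 held no GACATAT in up to 2301 bases of 3′ UTR, and XIAP held no AAGTTAA in up to 6798 bases, nor did MCL1. A copy too near the transcript end to print with its flank was not recorded for members. The shares over all genes do count such copies. Over 10906 tested genes with a coding transcript, 17.9% held AAGTTAA and 8.31% held GACATAT. Of the AAGTTAA carriers 17.8% were called lower with si-RAB23-9, beside 4.22% of the other genes, and of the GACATAT carriers 26.0% with si-RAB23-1, beside 7.12%.

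BCL2L11 held AAGTTAA at 2 positions. It was not lower with si-RAB23-9: its change against si-NC was 0.26 (limma adjusted p = 0.0582). The stretches are printed to show where the 7-mer lies in a member. They are from GENCODE 29 transcripts, plus strand, at chr2:111146210-111146238 and chr2:111167164-111167192, with the 7-mer in capitals.
BCL2L11 site 1: ataaaattgccAAGTTAAaaatttgatct
BCL2L11 site 2: gccgtcccatgAAGTTAActcctgagagt
CFLAR held 1 copy of each 7-mer and BCL2 held 1 of AAGTTAA. The other 7 members had neither recorded. Whether any of these stretches was bound by an siRNA was not tested.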

How the data were processed

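The values are FPKM, deposited by the authors as 1 column per library. Per the submitters' processing notes, the tools were STAR 2.5.1b, RSEM 1.2.29, Trimmomatic 0.36, FastQC and edgeR 3.8.5; their roles are not stated, and the build named is hg19. In the table, however, coordinates of all 58735 genes are those of GENCODE 29 on GRCh38. FPKM times gene length gave whole multiples of 1 step per library for 100% of values (within 0.01 of a read), from which reads were recovered. Strandedness is not given in the sources used here.

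A gene was tested if 2 or more libraries reached an FPKM of 1 (14352 genes). The fit to log2(FPKM + 1) used limma (3.58.1, R 4.3.3): 1 mean per group over all 6 libraries, eBayes with a trend, two-sided, 3 residual degrees of freedom, Benjamini-Hochberg adjustment over all genes tested. The code was tested on simulated data. FPKM are no counts, so voom on recovered reads was an alternative only. Others were the pseudocount, filters, scaling, the groups fitted, a replicate block and leaving out each library. Where 1 library is left out, the lone library of its group is assumed to vary like the others. Of the listed genes, those called were named, up to 4 per list and comparison by size of change, and a gene so named may be given in any comparison; BCL2L2, BAX, DIABLO, TNFRSF10B and XAF1 were added after their values were seen. The members and lists were chosen with earlier results of these data known. Promoters are from RefSeq, GRCh38.p14. Some genes of the lists are not reported here.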

Additional observations from a re-analysis of the deposited data

Results flagged for a closer look

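For each gene below, the effects of the siRNAs differed by a test of the difference itself, si-RAB23-9 minus si-RAB23-1 (limma adjusted p under 0.05 over all genes). Among the members, log2 values of 0.759 for BIRC3 and 0.386 for BCL2L11 were higher with si-RAB23-9, and -0.281 for XIAP and -0.245 for MCL1 were lower. Among the other listed genes, those higher with si-RAB23-9 than with si-RAB23-1 were RELB (0.748), CXCL3 (0.548), BBC3 (0.421), BIRC5 (0.412), TNFAIP3 (0.371), NFKBIA (0.356), TRAF3 (0.346), TRAF2 (0.320) and NFKB1 (0.226). Those lower were TRADD (-0.363), TNFRSF10A (-0.315), TNFRSF10D (-0.262) and BIRC6 (-0.193). Of 33 calls of listed genes outside the members over the 3 comparisons, 9 passed with any 1 library left out, and none changed sign under any setting run.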

How the results depend on the processing

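The count of genes called depended on the filter, the model and the libraries. With si-RAB23-1 against si-NC, 2209 genes were called, against 1049 with no filter, 1234 with only the groups compared, 3800 by voom, and 338 to 1820 with 1 library left out. With si-RAB23-9 against si-NC, 1902 were called, against 983 with no filter, 3408 by voom, 2950 by voom with no filter (an alternative chosen after seeing the data), and 258 to 2075 with 1 library left out. Between the siRNAs, 3019 were called, against 1458 with no filter, 1919 with only the groups compared, and 705 to 2691 with 1 library left out.

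Members called with si-RAB23-1 numbered 0 with a mean FPKM of at least 5, which removes BIRC3, and 0 to 1 with 1 library left out. With si-RAB23-9 they numbered 0 with no filter, 2 with a mean FPKM of at least 5, 3 with only the groups compared, 3 by either voom fit, and 0 to 3 with 1 library left out. Between the siRNAs they numbered 1 with no filter and 1 to 4 with 1 library left out. Why these counts move was not tested beyond the members that a filter removes.

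Signs turned only for values that were not called. By voom, with and without the filter, XIAP was -0.0075 and -0.0089 with si-RAB23-1, and BID was -0.0030 and -0.0042 with si-RAB23-9. With median-of-ratios scaling BID was -0.00050 with si-RAB23-9 and BAK1 -0.0028 between the siRNAs. With quantile normalization BID was -0.032 with si-RAB23-9, and BAK1 was -0.0045 and CFLAR -0.011 between the siRNAs. With 1 library left out, the ranges with si-RAB23-1 were -0.12 to 0.00068 for BAK1, -0.033 to 0.013 for BID, -0.026 to 0.12 for BIRC2 and -0.020 to 0.062 for XIAP. With si-RAB23-9 they were -0.11 to 0.023 for BCL2L1, -0.12 to 0.00096 for BAK1 and -0.047 to 0.051 for BID. Between the siRNAs they were -0.046 to 0.047 for BAK1, -0.036 to 0.062 for BID and -0.010 to 0.029 for CFLAR.

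No effect shared by replicate number was visible: deviations of same-numbered libraries correlated at -0.056, -0.016 and 0.061. This does not show whether same-numbered libraries were made together. With the replicate block 1655, 1437 and 2423 genes were called in the comparisons in the same order, and 1, 1 and 4 members. BCL2, on 71 to 101 reads per library, was under the filter and has values only without it.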
